A study of Rattus norvegicus with 17 samples.

Results

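The core genes of the circadian clock were followed in 17 livers of young male Wistar rats. The set named 10 genes: Clock, Per1, Per2, Per3, Cry1, Cry2, Dbp, Nr1d1, Nr1d2 and Tef. Members were taken as the probe sets whose platform annotation gives one of these symbols as its only gene. This found 7 of the 10, each with a single probe set, among 14557 genes with a probe set, and all 7 passed the filter on dim signals that left 12912 genes for testing. Nr1d1, Nr1d2 and Tef were not analysed here because no probe set carries their symbol alone in the annotation used.

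The pups were 24 days old and came from dams that had eaten a choline-deficient diet for 16 weeks before mating, so that every dam had a fatty liver, including the dams of the reference group. Each group has a code of 2 letters, the first for the dam's diet in pregnancy and the second for lactation, where N is a diet with enough choline and D one that lacks it: NN (4 livers), ND (4), DN (5) and DD (4). NN dams were returned to adequate choline at mating and kept on it, ND dams had adequate choline in pregnancy only, DN dams in lactation only, and DD dams in neither period. One male was taken per litter, so each array is a separate animal and litter. The animals lived under a light and dark cycle of equal parts, and neither the clock time of killing nor the time since the last meal is given in the sources used here.

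The liver clock is a feedback loop. CLOCK, or its relative NPAS2, pairs with BMAL1 and switches on genes with an E-box, among them the Per and Cry genes, Dbp and the nuclear receptor genes Nr1d1 and Nr1d2. PER and CRY proteins then repress that pair, while the NR1D receptors repress Bmal1 through ROR elements. DBP and TEF carry the rhythm to further genes through D-boxes. In livers of nocturnal rodents Dbp and the Per genes peak at another part of the day than Bmal1, Npas2 and Cry1. Samples taken at different phases can thus differ in opposite directions for these genes, depending on the phases.

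A pair of promoter windows shows elements of this loop. They are printed because Per2 and Bmal1 stand on opposite limbs of the loop and because their windows held the elements searched for. Each holds the 250 bases before the start of a RefSeq transcript in build GRCr8, read 5′ to 3′ on the gene's own strand.
Per2, chr9:99496994-99497243, minus strand, capitals mark a D-box and an E-box variant: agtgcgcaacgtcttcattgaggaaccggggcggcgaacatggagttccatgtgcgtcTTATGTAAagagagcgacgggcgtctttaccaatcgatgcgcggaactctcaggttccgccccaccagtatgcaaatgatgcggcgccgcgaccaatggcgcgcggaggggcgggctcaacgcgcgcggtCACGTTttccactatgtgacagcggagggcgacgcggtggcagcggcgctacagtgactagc
Bmal1, chr1:176766078-176766327, plus strand, capitals mark a ROR element half-site: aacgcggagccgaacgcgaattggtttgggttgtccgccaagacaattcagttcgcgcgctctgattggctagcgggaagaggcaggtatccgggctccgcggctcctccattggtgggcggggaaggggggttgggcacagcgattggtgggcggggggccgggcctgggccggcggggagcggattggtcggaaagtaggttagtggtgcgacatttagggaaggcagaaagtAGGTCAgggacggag

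The D-box was searched as TTATGTAA or TTACGTAA and the ROR half-site as AGGTCA, both on either strand. In Per2 the D-box lies at -192 to -185 from the transcript start, and a D-box was found in 0.932% of 33469 rat windows of this length. The E-box variant CACGTT, added to the search after the windows had been read, lies at -62 to -57 and was found in 4.07% of windows. Cry2 also holds this variant, at -212 to -207. The half-site in Bmal1 lies at -15 to -10, and 14.1% of windows hold one. The E-box CACGTG (5.59% of windows) and the cAMP response element TGACGTCA (1.59%) were found in none of the windows of the 6 members that have one; among the 7 other clock genes measured, Bhlhe40 holds an E-box. The searched motifs do not overlap in either printed window, and these matches describe letters, not bound sites.

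Signals are RMA values on the log2 scale, which are relative within a probe set, so levels of clock genes are compared between livers and not with each other. Levels of different genes are set side by side only as a coarse guide to high or dim signal. The transcripts of hepatocytes were high on every array, with means of 8 measured hepatocyte markers from 10.22 to 10.67 per liver, whereas 4 measured prostate markers averaged 2.11 to 2.51 (a free-text field of each sample names a prostate cell line). Arrays differed in spread, the SD over all probe sets, which ran from 1.62 to 1.79. In a fit of the 4 group means by limma, 1 gene (not a clock gene) passed a Benjamini-Hochberg adjusted p under 0.05 in 1 of 9 comparisons.

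Dbp, the D-box activator whose transcript has one of the widest daily swings in rodent liver, varied more between livers of one group than nearly any other gene. Its log2 signal was 4.22, 4.98, 5.82 and 4.56 in the NN livers, 5.42, 4.55, 7.57 and 4.53 in ND, 7.36, 5.39, 4.20, 6.14 and 4.87 in DN, and 6.46, 5.95, 5.46 and 5.19 in DD. The highest and the lowest livers of the series, ND 3 and DN 3, thus came from different groups, and the 4 groups overlapped in every pairing. The DD livers were the closest together, between 5.19 and 6.46. The SD within groups was 1.05 with 13 residual degrees of freedom, at the 99.9th percentile of all genes tested.

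The Per genes, which encode the period repressors, spread widely as well. Per3 stood at 4.05, 4.65, 4.60 and 4.56 in NN, at 4.36, 3.82, 5.35 and 4.06 in ND, at 5.09, 4.85, 3.53, 5.36 and 4.66 in DN, and at 5.13, 4.94, 4.52 and 4.79 in DD. Its high livers were ND 3, DN 4, DD 1 and DN 1, which are also the 4 highest for Dbp, and its lowest, DN 3, is the lowest for Dbp. Per2 was 4.70, 5.24, 4.49 and 6.01 in NN, 5.57, 3.72, 5.51 and 5.51 in ND, 5.22, 5.60, 3.00, 4.66 and 4.73 in DN, and 5.76, 5.45, 4.67 and 5.48 in DD. Livers DN 3 and ND 2 lay lowest, and the other 3 ND livers stood between 5.51 and 5.57. Per1, a period gene that also answers acutely to hormones and other signals, was 3.05, 4.52, 2.50 and 4.16 in NN, 4.03, 4.79, 4.52 and 3.11 in ND, 4.19, 5.48, 3.28, 2.75 and 3.12 in DN, and 3.18, 3.77, 3.96 and 4.16 in DD. No pair of groups was separated for any of the 3 Per genes.

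The cryptochromes, repressors that act with PER, spread less. Cry1 was 5.10, 4.80, 4.29 and 4.31 in NN, 4.10, 4.44, 3.47 and 4.95 in ND, 3.74, 4.14, 3.61, 3.87 and 3.91 in DN, and 3.78, 3.52, 3.21 and 4.31 in DD. All 5 DN livers lay below all 4 NN livers (as for 1.92% of all genes), and 3 of the 4 DD livers did. Cry2 was 5.48, 5.34, 4.79 and 5.20 in NN, 5.78, 5.39, 5.46 and 5.36 in ND, 5.48, 5.43, 4.39, 5.27 and 4.72 in DN, and 5.19, 5.30, 4.53 and 4.94 in DD. Every ND liver exceeded every DD liver for Cry2, as for 2.23% of all genes.

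Clock, the acetyltransferase and DNA-binding partner of BMAL1, has a shallow daily rhythm in rodent liver. Its signal was 4.29, 5.04, 4.19 and 3.68 in NN, 5.26, 4.42, 4.26 and 5.50 in ND, 4.90, 5.62, 5.35, 5.47 and 4.28 in DN, and 3.69, 4.23, 3.89 and 3.48 in DD. The DD livers all lay below the ND livers (as for 2.23% of all genes) and the DN livers (3.2%), and NN overlapped all 3 other groups.

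**Figure D1:**
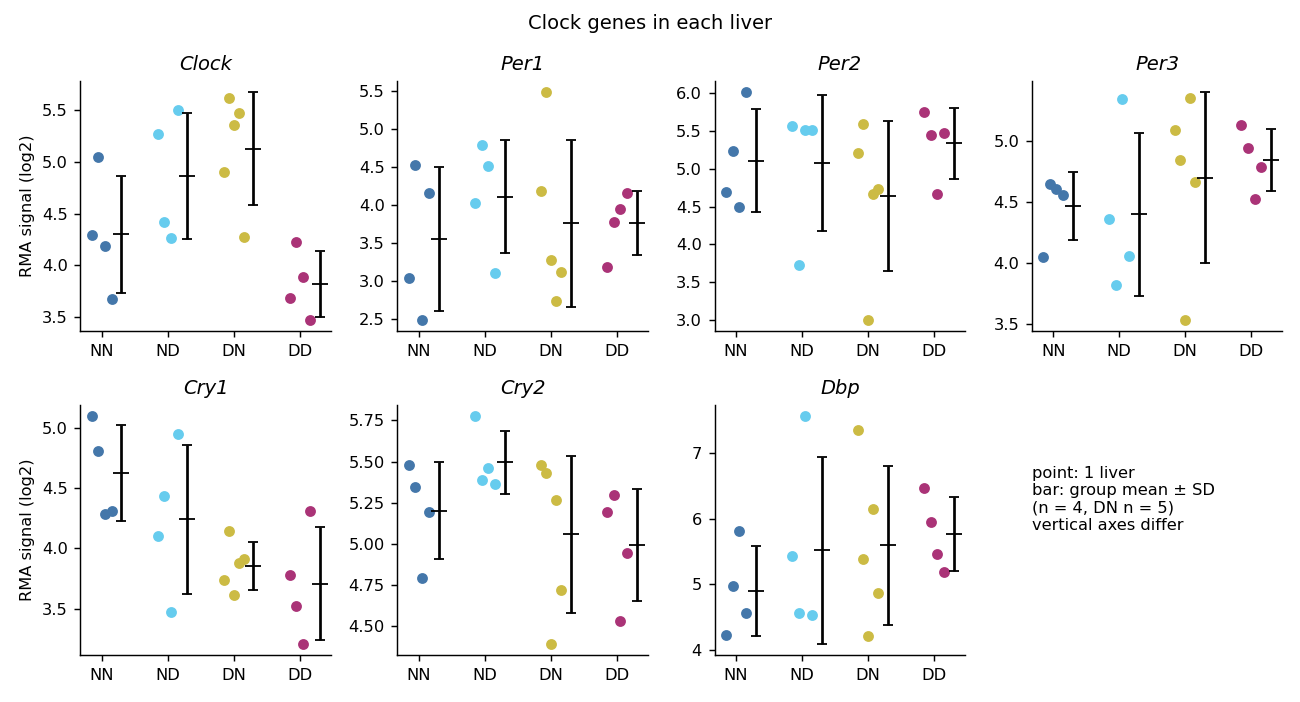
RMA signal (log2, vertical axis) of the 7 measured clock genes in the 4 groups, with 1 point per liver and the group mean ± SD beside the points. Dbp, Per1 and Per2 scatter widely within NN, ND and DN, and for Clock the DD livers, between 3.48 and 4.23, lie below all ND and DN livers and overlap with NN.

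Most members varied widely within groups. The median SD within groups over all 12912 genes was 0.248, and 10% of genes lay above the 90th percentile of 0.437. Of the 7 members 5 did: Dbp, Per1 (0.862, 99.6th percentile), Per2 (0.806, 99.5th), Per3 (0.536, 96.1th) and Clock (0.523, 95.7th). Cry1 (0.433) and Cry2 (0.355) stood at the 89.7th and 79.6th percentiles. Such spread was not particular to these genes. Of the 7 other clock genes measured 2 lay above the 90th percentile, Bmal1 (0.752, 99.2th percentile) and Bhlhe40 (0.798, 99.4th), as did 3 of 9 clock-driven genes, 6 of 8 glucocorticoid-responsive genes (Per1 among them) and all 11 measured genes of a fasting and feeding list. These percentiles describe the arrays and were not tested.

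**Figure D2:**
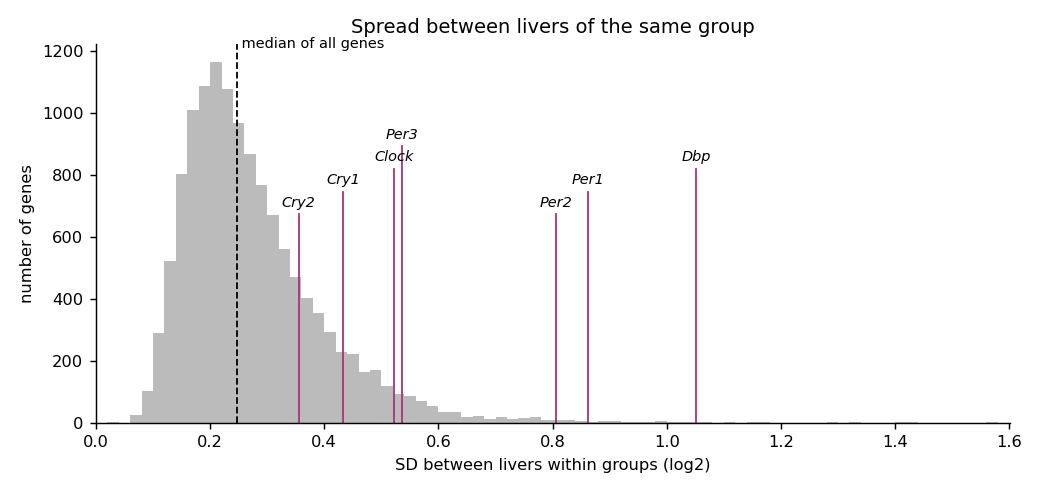
Number of genes (vertical axis) by SD between livers within groups (log2, horizontal axis), with the 7 members marked and the median of all genes as a dashed line. Dbp, Per1 and Per2 lie in the far right tail at 1.05, 0.862 and 0.806, and Cry2 is nearest to the median at 0.355.

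Between livers, Dbp and Per3 moved together. Over the 17 livers Pearson's r was 0.83 (permutation p = 5.0e-05, adjusted p = 0.00105 over the 21 pairs of members) and Spearman's rho was 0.84 (permutation p = 6.0e-05, adjusted p = 0.00126). Leaving out ND 2 and DN 3, the livers farthest from the median of Per3, gave an r of 0.82. With each group's mean subtracted r was 0.85, so the relation was present within the groups. Among 12911 other genes Per3 had the second highest correlation with Dbp. It was the only pair of the 21 that passed on the signals as they stand. Dbp had r = 0.37 with Per2 and 0.10 with Per1 (permutation test, adjusted p = 0.379 and 0.815). With group means subtracted, Per2 with Per3 (r = 0.68, permutation adjusted p = 0.0267) and Per2 with Cry2 (r = 0.66, permutation adjusted p = 0.0308) fell under 0.05 as well. Those permutations took no account of the group means removed, so their p tends to be too small. Whether these 2 pairs pass is therefore not settled, and they were not repeated without ND 2 and DN 3. On the signals as they stand the next were Per2 with Per3 (r = 0.61, rho = 0.36, adjusted p = 0.111, and 0.11 without ND 2 and DN 3, on which the r rests) and Cry1 with Dbp (r = -0.57, rho = -0.62, adjusted p = 0.118).

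Bmal1, the partner of CLOCK, and Npas2, a stand-in for it, belong to the opposite limb of the loop. Both were taken from a list of 22 other clock genes of which 7 were measured. Bmal1 ran against Dbp and Npas2 against Per3, whereas no such relation of Per1 or Per2 passed. Per3 with Bmal1 gave r = -0.62 and rho = -0.61 and did not pass (permutation test, adjusted p = 0.0637 and 0.0671). For Per2 r was -0.26 with Bmal1 and -0.33 with Npas2 (permutation test, adjusted p = 0.625 and 0.545). For Per1 r was 0.04 and 0.07 (permutation test, adjusted p = 0.910 and 0.862). Bmal1 was 5.05, 5.54, 3.92 and 4.78 in NN, 5.10, 5.56, 3.01 and 5.68 in ND, 4.05, 4.80, 5.05, 4.95 and 4.81 in DN, and 3.37, 4.09, 3.63 and 4.48 in DD. Its lowest liver was ND 3, the highest for Dbp, and DN 1, the second highest for Dbp, was the lowest of its own group. Across 17 livers Bmal1 and Dbp were correlated at r = -0.76 and rho = -0.74 (permutation p = 0.00044 and 0.00114, adjusted p = 0.0213 and 0.0279 over 49 pairs of a member with another clock gene). The r was -0.69 without ND 3 and DN 1 (adjusted p = 0.0547) and -0.81 with group means subtracted. Without ND 3 alone it was -0.67 and the adjusted p was 0.0554. With array spread regressed out of both genes it was -0.91. Bmal1 had the second lowest correlation with Dbp of all 12911 genes.

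Cry1 ran with Bmal1 between livers (permutation test, r = 0.70, rho = 0.68, adjusted p = 0.0213 and 0.0467), and Npas2 ran against Per3 (permutation test, r = -0.70, rho = -0.65, adjusted p = 0.0213 and 0.0467). Npas2 with Dbp gave r = -0.59 (adjusted p = 0.0803) and rho = -0.65 (adjusted p = 0.0467). With array spread regressed out, r was 0.69 for Cry1 with Bmal1 and -0.81 for Per3 with Npas2. Without the 2 livers farthest from the median, r was 0.68 for Cry1 with Bmal1 and -0.68 for Per3 with Npas2, and adjusted p was 0.0547 for both. Leaving out ND 2, ND 3 or ND 4 alone ended the call of Cry1 with Bmal1, with r of 0.69, 0.66 and 0.64 and adjusted p of 0.0595, 0.0554 and 0.0701. For Per3 with Npas2, leaving out ND 2 or ND 3 alone did so, with r of -0.65 and -0.66 and adjusted p of 0.0682 and 0.0554, as did centring each array on its median (r = -0.59, adjusted p = 0.0862).

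**Figure D3:**
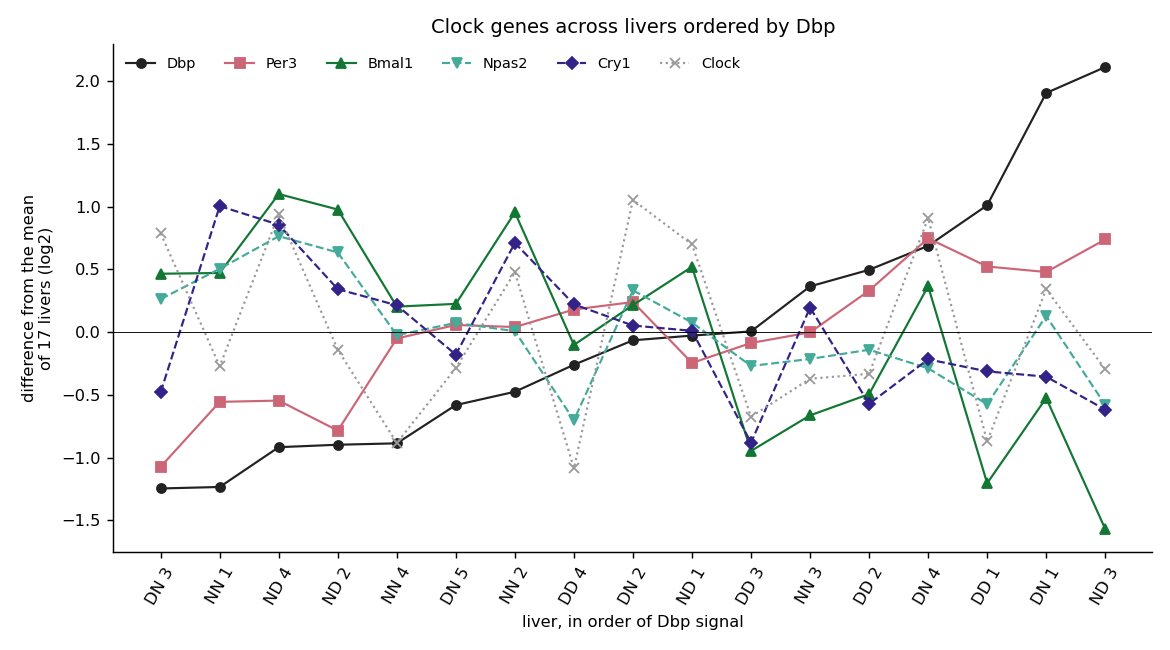
Difference of each liver from the mean of 17 livers (log2, vertical axis) for 6 clock genes, with livers ordered by Dbp signal on the horizontal axis. Per3 climbs with Dbp (r = 0.83) while Bmal1, Npas2 and Cry1 descend (r = -0.76, -0.59 and -0.57), and the r of Clock is -0.09. Per1 and Per2 (r = 0.10 and 0.37 with Dbp) are not drawn.

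No relation of Clock with Dbp or the Per genes passed. Over 17 livers r was -0.09 for Clock with Dbp, 0.07 with Per1, -0.21 with Per2 and -0.18 with Per3 (permutation p from 0.430 to 0.785, adjusted p from 0.694 to 0.815). The sign for Dbp, Per1 and Per2 turned under some alternatives. With array spread regressed out of both genes the r was more negative, at -0.60 with Per2 (adjusted p = 0.0632), -0.51 with Per3 (adjusted p = 0.131) and -0.25 with Dbp (adjusted p = 0.52), and none passed. With Bmal1 the r was 0.54 (rho = 0.63, adjusted p = 0.119 and 0.0521), and with Npas2 it was 0.55 (rho = 0.65, adjusted p = 0.118 and 0.0467). Clock followed the spread of the array, with r = 0.81 and rho = 0.80 (permutation p = 0.00017 and 0.00019, adjusted p = 0.00119 for r over 14 clock genes, r = 0.83 without NN 3 and DD 3). Its r lay at the 97.0th percentile of all genes, and sizes over 0.8 were found in 4.48% of genes. The same measure was 0.08 for Dbp, 0.15 for Per3, 0.22 for Cry1, 0.48 for Bmal1 and 0.51 for Cry2, of which none passed (adjusted p from 0.165 to 0.772). Nono, a nuclear protein that binds PER, was the other clock gene near Clock, with r = 0.73 to Clock (rho = 0.77, adjusted p = 0.0213 and 0.0250) and r = 0.80 to array spread. Without ND 3 its r to Clock was 0.72 and the adjusted p 0.0527. That r was 0.24 after array spread had been regressed out of both (adjusted p = 0.698) and 0.55 after repeated quantile normalisation (adjusted p = 0.165).

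**Figure D4:**
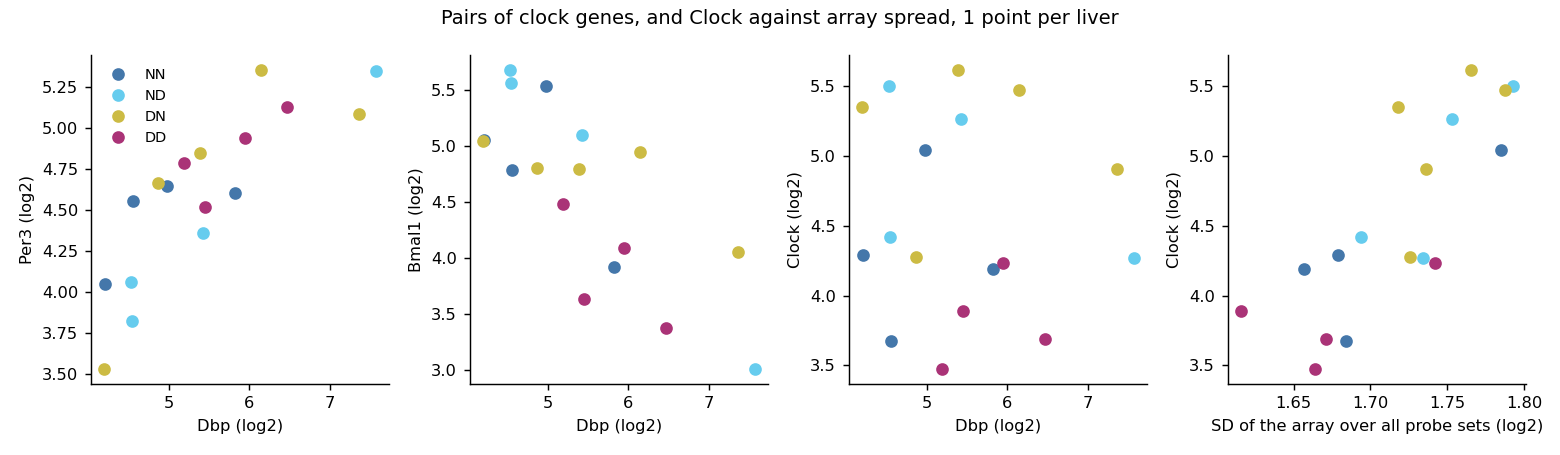
Signal (log2) of Per3, Bmal1 and Clock against Dbp, and of Clock against the SD of the array over all probe sets, with 1 point per liver coloured by group. Over the 17 livers Per3 rises (r = 0.83) and Bmal1 descends (r = -0.76) with Dbp, while Clock has r = -0.09 with Dbp and rises with array spread (r = 0.81).

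Genes with a profile like that of Dbp, ranked by r over the 17 livers and outside the set, were Lbh (0.86), a transcriptional cofactor, Amacr (0.79), a racemase of branched fatty acid and bile acid precursor breakdown, Rbm12 (0.75), the steroid dehydrogenase gene Hsd17b2 (0.73) and Pyroxd2 (0.73). The most opposed were Lgalsl (-0.83), Bmal1, Mrgprd (-0.73), Me1 (-0.72), the malic enzyme that supplies NADPH, and the lipid-sensing receptor gene Ppard (-0.70). Mrgprd, with a mean of 2.78, is close to the median of all values, 2.58. None of these 10 genes had an r with array spread beyond 0.48. For Clock the closest were Ap1g1, Med14, Agfg1, Slc30a7 and Tmem230 (0.94 to 0.96), and the most opposed Rpl41, Sem1, Glrx5, Fxyd7 and Exosc6 (-0.95 to -0.91). Those 10 genes had r with array spread of 0.80 to 0.89 and of -0.83 to -0.69.

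Per2 was the member closest to Bhlhe40, the E-box repressor also called DEC1 (r = 0.70, rho = 0.59, adjusted p = 0.0213 and 0.0808). That r was 0.40 without ND 2 and DN 3, and its adjusted p was 0.0954 without ND 2 alone, 0.0527 without ND 3 alone and 0.0626 without DN 3 alone. Por, cytochrome P450 reductase, known as a clock-driven gene of liver, had r = 0.80 with Per2 and 0.80 with Cry2, which describes these livers only. It is named as the highest of 9 measured clock-driven genes. The others ran from -0.30 (Lpin1) to 0.47 (Slc2a2) with Per2 and from -0.46 (Elovl3) to 0.65 (Cyp2a1) with Cry2. Liver DN 3 was the lowest for Por (5.86), Per2 (3.00) and Cry2 (4.39), and its part in the r of Por was not tested. Per1 was not closely matched with any other member, its largest r being 0.37, with Cry2 (adjusted p = 0.379).

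The group comparisons ask whether the maternal choline supply in pregnancy or lactation was accompanied by a shift of these genes. In limma 0 of the 7 members passed in any of the 9 comparisons, which are 6 pairs of groups, each period's average effect, and the interaction of both. The share of all genes called was 0.00774% for DD against DN and 0% in the other comparisons. At an unadjusted p under 0.05 the members numbered 0 for ND against NN (4.63% of all genes), 2 for DN against NN (13.4%), 1 for DD against DN (18.5%), 2 for DD against ND (8.77%), 1 for DD against NN (3.58%) and 0 for ND against DN (2.83%). For the average effects they numbered 0 for lactation (3.15% of genes) and 1 for pregnancy (2.84%), and 1 for the interaction (20%).

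Clock had the largest differences. It averaged 3.82 ± 0.32 (SD, n = 4) in DD and 5.12 ± 0.54 (SD, n = 5) in DN, a difference of -1.30 ± 0.312 (SE) in log2 units, or a 2.47-fold lower signal, with an adjusted p of 0.131 in limma. The exact permutation test of these 2 groups gave p = 0.0159, the smallest that 4 against 5 livers allow, unadjusted over 8 such tests. These tests were run only for members picked by their limma p in the same livers, so they give no separate support. Groups that do not overlap, with DD lower, were found for 3.2% of all genes in this pair. Against ND, with 4.86 ± 0.61 (SD, n = 4), the difference was -1.04 ± 0.329 (limma adjusted p = 0.55), and the exact permutation p was 0.0286, again the smallest possible. In this pair 2.23% of genes lay lower in DD without overlap. DN against NN differed by 0.82 ± 0.312 (limma adjusted p = 0.312) and ND against NN by 0.56 ± 0.329 (limma adjusted p = 0.889). The average effect of deficient over adequate lactation was -0.37 ± 0.226 (limma adjusted p = 0.998). The interaction, DD minus DN less ND minus NN, was -1.87 ± 0.453 (limma adjusted p = 0.114), and without NN 2 it was -2.11 with an adjusted p of 0.0269, in a fit that called 639 genes.

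The arrays of DD also had a lower spread than those of DN and ND, from 1.62 to 1.74 against 1.72 to 1.79 in DN and 1.69 to 1.79 in ND. Low spread was not particular to DD. In NN it was 1.68, 1.79, 1.66 and 1.68, so NN 1, NN 3 and NN 4 lay within the range of DD. With array spread as a covariate the Clock difference was -0.73 for DD against DN, -0.49 for DD against ND and -0.97 for the interaction (limma adjusted p = 0.876, 1.00 and 0.985). The mean of 6 measured endothelial markers ran from 5.02 to 5.68 in DD and from 5.59 to 5.90 in DN, and over the 17 livers it had r = 0.93 with array spread. For 7 Kupffer cell markers the ranges were 5.25 to 5.51 and 5.08 to 5.97, and for 6 stellate cell markers 4.35 to 4.92 and 4.43 to 4.70. In bulk liver, fewer cells of a type and less RNA per cell cannot be told apart, and the part of these cell types in the Clock difference was not tested.

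Cry1 stood lowest in the 2 groups with a deficient pregnancy diet. It averaged 4.62 ± 0.40 in NN, 4.24 ± 0.62 in ND, 3.86 ± 0.20 in DN and 3.71 ± 0.47 in DD (SD, n = 4, 4, 5 and 4). DN differed from NN by -0.77 ± 0.262 (limma adjusted p = 0.282), and the exact permutation p was 0.0159, the smallest possible. Cry1 was picked for that test by its limma p in the same livers. DN lay below NN without overlap for 1.92% of all genes. The DD against NN difference was -0.92 ± 0.276 (limma adjusted p = 0.999, exact permutation p = 0.0857), and the average pregnancy effect was -0.65 ± 0.190 (limma adjusted p = 1.00). With array spread as a covariate these 3 differences were -0.90, -0.83 and -0.61.

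Cry2 averaged 4.99 ± 0.34 in DD and 5.50 ± 0.19 in ND (SD, n = 4 each), a difference of -0.51 ± 0.232 (limma adjusted p = 0.559, exact permutation p = 0.0286, the smallest possible). Cry2 too was picked for that test by its limma p in the same livers. In this pair 2.23% of all genes lay lower in DD without overlap. With array spread as a covariate the Cry2 difference was -0.21. Between ND and DN the difference was 0.44 ± 0.220 (limma adjusted p = 0.999, exact permutation p = 0.143).

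Dbp and the Per genes gave no such separation. Dbp averaged 4.89 ± 0.69 in NN, 5.52 ± 1.43 in ND, 5.59 ± 1.22 in DN and 5.76 ± 0.56 in DD (SD, n = 4, 4, 5 and 4). The largest of its 6 pairwise differences was 0.87 for DD against NN, with a 95% interval from -0.48 to 2.23. For Per3 the largest was 0.45 (DD against ND, interval -0.26 to 1.16), for Per2 0.70 (DD against DN, -0.29 to 1.69) and for Per1 0.55 (ND against NN, -0.55 to 1.66). With 4 or 5 livers a group the arrays do not show that the groups were alike.

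**Figure D5:**
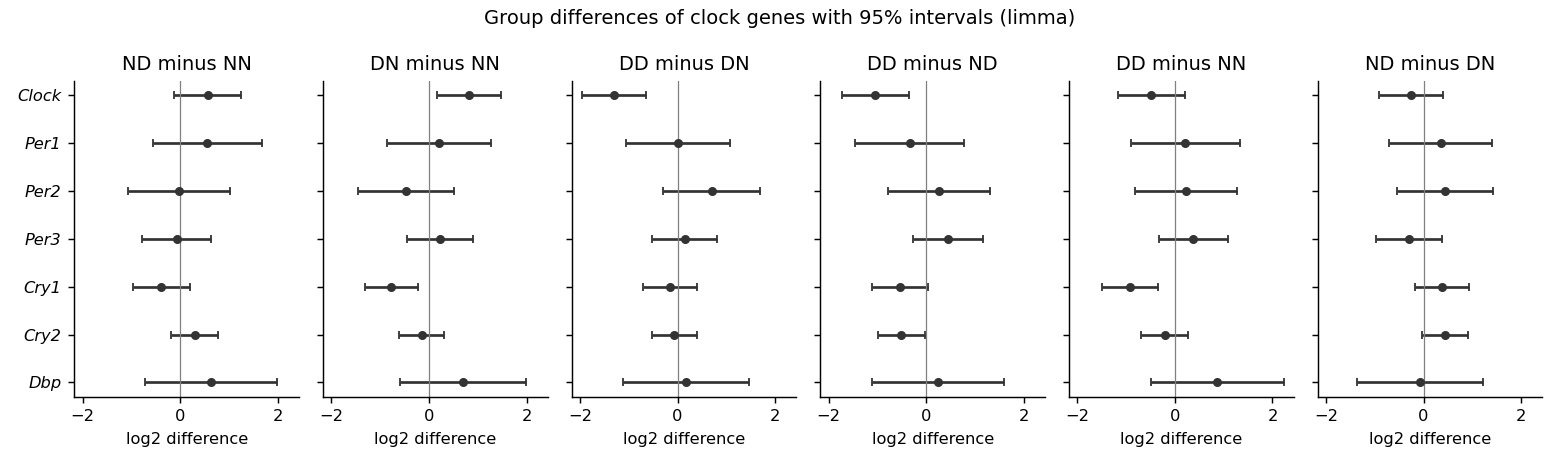
Differences between groups (log2, horizontal axis) of the 7 measured clock genes in 6 pairs of groups, with 95% intervals from limma. Clock lies farthest from 0, at -1.30 for DD minus DN, and the intervals of Dbp, Per1, Per2 and Per3 cross 0 in each pair.

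Of the 7 other clock genes measured (Bmal1, Npas2, Nfil3, Bhlhe40, Timeless, Noct and Nono) 0 passed in either direction in any comparison by limma. Bmal1 averaged 3.89 ± 0.49 in DD, 4.73 ± 0.39 in DN, 4.84 ± 1.24 in ND and 4.82 ± 0.68 in NN (SD, n = 4, 5, 4 and 4). All 4 DD livers, at 3.37 to 4.48, were below the median of 4.80 over the series, and they overlapped with each of the other groups. Npas2 differed by -0.65 ± 0.244 between DD and ND (limma adjusted p = 0.55). Noct, nocturnin, a metabolic enzyme with a strong nightly rhythm in mouse liver, was 0.57 ± 0.189 higher in ND than in DN (limma adjusted p = 0.999), and the ND livers, at 4.64 to 5.04, exceeded every DN liver, at 3.77 to 4.52, as in 0.674% of genes. Against NN, at 4.24 to 4.63, Noct was also higher in every ND liver (1.37% of genes), and Nfil3, a repressor at D-boxes, was lower in every ND liver, at 4.72 to 4.91 against 4.98 to 5.08 (1.21% of genes).

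The members differed in direction. Between DD and DN 4 of 7 were higher and 3 lower, with a median of 0.01, and over all genes the median was 0.01. Between DD and ND 3 were higher and 4 lower, with a median of -0.34 against -0.02 over all genes. Between DN and NN 4 were higher and 3 lower, with a median of 0.21 against -0.03.

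Genes driven by the liver clock, and genes that respond to signals known to reset it, were listed as well. In limma 0 of the genes measured in these lists passed in any pair of groups. Of 17 clock-driven liver genes 9 were measured, with Cyp2a1 (-0.84 ± 0.217) and Insig2 (-0.64 ± 0.212) of smallest p, both for DD against ND (limma adjusted p = 0.55 each). Of 11 glucocorticoid-responsive genes 8 were measured, Per1 among them, with Mt2A, a metallothionein, at -3.01 ± 0.776 for DD against DN (limma adjusted p = 0.131), and Tat, tyrosine aminotransferase, at -0.79 ± 0.317 for DD against ND (limma adjusted p = 0.55). In the temperature list 6 of 10 were measured, led by Rbm3, an RNA-binding protein induced by cold, at 0.58 ± 0.208 for DD against NN (limma adjusted p = 0.999), and the chaperone gene Dnajb1 at -0.47 ± 0.239 for DN against NN (limma adjusted p = 0.39). Of 15 fasting and feeding genes 11 were measured, led by Bcl6 at 1.59 ± 0.414 for ND against NN (limma adjusted p = 0.889) and Srebf1 at -1.41 ± 0.492 for DN against NN (limma adjusted p = 0.29).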

How the data were processed

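Liver RNA of 17 pups was hybridised to Affymetrix arrays, 1 per animal, per the labels' protocols. The authors deposited log2 probe set signals, made with RMA and affy per the submitters' processing notes. Base 2 was assumed for the logarithm, and tool versions are not given in the sources used here. Of 36685 probe sets 14824 had 1 gene symbol, and the set with the highest mean was kept per gene. Genes above the 25th percentile (1.73) in at least 4 arrays were tested. Group means of all 17 arrays were fitted in limma 3.58.1 (R 4.3.3), with p adjusted over the 12912 genes within each comparison. A ± gives the SE of a difference or the SD of a mean. Pairs of genes were correlated with 100000 permutations (2-sided, Python 3.11.15), and 2 groups were compared with 2-sided exact permutation tests. The exact tests cover only members picked by their limma p in the same livers. The members and lists were chosen with earlier results of these data known. In each comparison the members with unadjusted p under 0.05 are named with their difference, or else the member of smallest p. Likeness names the 5 highest and 5 lowest genes, and each list its 2 genes of smallest p. Por is named besides, for its r with Per2 and Cry2. Other values of members and clock genes describe levels. Promoters are RefSeq sequences of GRCr8, matched by symbol for 6 of 7 members.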

Additional observations from a re-analysis of the deposited data

Results flagged for a closer look

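In 56 combinations of a clock gene and a group, 4 livers stood apart by the ratio of their gap to the group's range, and such gaps arise by chance in about 1 group in 20. Per2 was 3.72 in ND 2, where the nearest ND liver was at 5.51. Per3 was 4.05 in NN 1, below the next NN liver at 4.56. Bmal1 was 4.05 in DN 1, the DN liver with the most Dbp, below the next at 4.80. Nono was 6.16 in DN 4, above the next DN liver at 5.50.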

How the results depend on the processing

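No member passed in any comparison under the alternatives tried, except Clock in the interaction without NN 2 (-2.11, adjusted p = 0.0269), where members called ran from 0 to 1 and genes called from 0 to 639 over the fits that each left out 1 liver. The 1 gene called between DD and DN became 0 with no filter, with median centring, with array spread as a covariate, with only these 2 groups, and without DD 3 and DN 3, an alternative chosen after seeing the data. It ran from 0 to 1 when livers were left out in turn, with 0 in 12 of 17 fits. Genes called between DN and NN ran from 0 to 18, with 18 without NN 2. The replicate number as a block (replicate block) gave 3 genes called between DD and DN and 1 for lactation, called 0 members, and put Clock at -1.51 between DD and DN (adjusted p = 0.0647) and at -2.08 for the interaction (adjusted p = 0.0713). The numbers share no source in the labels, so they were not taken as pairs. Same-number residuals correlated at a median of 0.04 over 24 pairs, and different-number residuals at -0.03 over 84. The r was over 0.1 in 11 of the 24 and 26 of the 84. Whether livers of the same number share anything was not tested. Pairs of members that passed numbered 3 with group means subtracted (Per2 with Per3 and with Cry2 were added) and 3 without both arrays of lowest mean correlation, and 1 to 3 without single livers (3 without DN 3). With group means subtracted the permutation p tends to be too small, because the means removed were not taken into account. Per3 with Dbp ranged from 0.80 to 0.85 over 24 settings. Pairs with other clock genes numbered 0 without the 2 farthest livers, and 0 to 7 without single livers, with 0 without ND 3 and 2 without ND 2. The sign turned for Clock with Per2 with group means subtracted (0.0396), with Per1 with array spread regressed out (-0.0671), without the 2 farthest livers (-0.0969) and without single livers (-0.176 to 0.207, lowest without DN 2), and with Dbp without the 2 farthest livers (0.0067) and without single livers (-0.175 to 0.0044, highest without DN 3). The cause of these changes was not tested. With 4 or 5 arrays a group, their number limits the precision.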
